A study of Mus musculus with 4 samples.

Results

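The levels of 9 YAP and TAZ pathway genes, out of the 32286 genes in the count matrices, were followed across the cerebral vessels of *Angpt2*-WT and *Angpt2*-KO mice. They were taken by symbol: the secreted matricellular genes *Ccn1* (CYR61), *Ccn2* (CTGF) and *Ccn3* (NOV), the nuclear target *Ankrd1*, the junctional angiomotin genes *Amotl1* and *Amotl2*, the coactivators *Yap1* and *Wwtr1* (which encodes TAZ), and the DNA-binding partner *Tead1*. Single-cell RNA was counted with 3′ chemistry from 10x Genomics in vessel fragments that had been pulled from dissociated cerebra with beads against PECAM1, a surface protein of endothelial cells (ECs). Each library came from 1 mouse of 3 months. WT1 and WT2 were *Angpt2*-WT littermates, and KO1 and KO2 carried a constitutive *Angpt2* knockout on the C57BL6/J background, made by crossing *Angpt2*flox mice with *Pgk-Cre*, a broadly active deleter. Because exon 4 was deleted in every cell from conception, a difference between genotypes covers the whole life of the vessel and cannot be assigned to ECs alone, and reads at the 3′ end of the transcript do not check the deletion. The mice numbered 1 were females and those numbered 2 were males.

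YAP and TAZ are coactivators without a DNA-binding domain of their own. When the Hippo kinases (MST and LATS) are active they are phosphorylated and kept out of the nucleus, and when cells are stretched, spread or exposed to growth signals they enter the nucleus, join TEAD factors and switch on genes such as *Ccn1*, *Ccn2*, *Ankrd1* and *Amotl2*. AMOTL1 and AMOTL2 bind YAP at junctions and hold it back, so that a part of the target program restrains the pathway. In growing retinal and brain vessels YAP and TAZ take part in sprouting and barrier maturation, and CCN1 and CCN2 are released into the matrix, where they bind integrins. All of this acts on protein and its location, which RNA counts do not show.

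The 9 genes lie on 6 chromosomes of GRCm38: *Ccn1* at chr3:145646976-145649981 and *Wwtr1* at chr3:57455649-57575910 (both minus strand), *Ccn2* at chr10:24595442-24598683 (plus strand), *Ccn3* at chr15:54745702-54754039 (plus strand), *Ankrd1* at chr19:36111961-36120099 (minus strand), *Amotl1* at chr9:14541966-14645056 and *Yap1* at chr9:7931999-8004596 (both minus strand), *Amotl2* at chr9:102716672-102733418 (plus strand) and *Tead1* at chr7:112679318-112906807 (plus strand). The letters to which TEAD factors are known to bind, CATTCC on one strand or GGAATG on the other, were searched on both strands in the 250 bases before the RefSeq transcript starts (GRCm38.p6). No window was given for *Ccn2*, *Ccn3* and *Tead1*, so these were not searched. A window was given for 6 members, and 5 of them held the motif (*Ccn1*, *Ankrd1*, *Amotl2*, *Yap1* and *Wwtr1*), while *Amotl1* did not. Of 27025 genes with such a window 14.4% held it, and of all 32851 windows 12.6%. The window of *Ccn1*, one of the members that differed most between genotypes, is printed whole (chr3:145649986-145650235, minus strand), and the others as 30 bases around the match, with the motif in capitals. These matches describe the letters and are not measured binding sites.
Ccn1: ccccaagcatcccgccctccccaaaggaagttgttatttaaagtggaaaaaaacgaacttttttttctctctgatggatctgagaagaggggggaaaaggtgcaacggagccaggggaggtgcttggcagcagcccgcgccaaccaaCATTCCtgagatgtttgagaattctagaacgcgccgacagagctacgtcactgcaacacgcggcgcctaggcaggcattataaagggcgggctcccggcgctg
Ankrd1 (chr19:36120037-36120066, minus): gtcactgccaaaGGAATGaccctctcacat
Ankrd1 (chr19:36119950-36119979, minus): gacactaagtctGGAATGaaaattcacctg
Amotl2 (chr9:102717727-102717756, plus): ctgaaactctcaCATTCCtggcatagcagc
Yap1 (chr9:8004720-8004749, minus): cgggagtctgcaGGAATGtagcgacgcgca
Wwtr1 (chr3:57576029-57576058, minus): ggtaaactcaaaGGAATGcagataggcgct

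After cells with 500 genes or fewer, or with 10% or more mitochondrial UMIs, were removed, 17999 cells remained, 2900 to 5742 per mouse, with 31753395 to 42903731 UMIs per library. Pairs of libraries shared 0 to 13 cell barcodes. Clusters were rebuilt without the members and named from marker genes, which gave 14108 ECs, 595 pericyte-like and 752 smooth muscle-like cells. None of the 7 EC markers was at 0 in ECs, none of the 7 pericyte markers in pericyte-like cells, and none of the 6 smooth muscle markers in smooth muscle-like cells. ECs were split into arterial-like (1825 cells), venous-like (672 cells) and capillary-like cells (clusters 0, 1 and 4, 8651 cells in all), and 2960 cells of cluster 2 stayed without a name. The mean score of the capillary markers was low in clusters 0 and 1 (0.01 and 0.08, against 0.31 in cluster 4). Both were shallow, with medians of 3186 and 3554 UMIs against 7523. They were led by *Gm26917* and *Lars2* and by *Ttr* and *Hbb-bs*, with the capillary markers *Ivns1abp* and *Rgcc* further down. Cluster 2 scored 0.41 for venous and 0.11 for capillary markers. Cluster 4, led by *Apln*, *Esm1* and *Trp53i11*, held 32 and 28 cells of the *Angpt2*-WT mice against 821 and 876 cells of the *Angpt2*-KO mice, so that much of the capillary-like *Angpt2*-KO sum came from a cluster that hardly entered the *Angpt2*-WT sum. *Apln*-positive ECs were those with at least 1 UMI of *Apln*, a peptide gene of sprouting tip cells.

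Levels are given below in the order WT1, WT2, KO1 and KO2 as CPM, the UMIs of a gene divided by all UMIs of that group of cells in a mouse and multiplied by 1e+06. Differences between genotypes are log2 fold changes of these sums with their standard error (SE), from edgeR's quasi-likelihood test with TMM normalization, and a gene passed the test at a Benjamini-Hochberg adjusted p under 0.05 over all genes tested. In microglia-like cells, a type that should hold little of these genes, *Yap1* lay between 2.96 and 12.2 CPM, *Wwtr1* between 30.9 and 44.7 CPM, *Ccn1* between 10.8 and 76.8 CPM and *Ccn2* at 0, 1.35, 39.5 and 20.7 CPM. In these cells most of the *Ccn2* UMIs of the *Angpt2*-KO mice lay in cells that also held a UMI of the endothelial claudin *Cldn5*, and without those cells the level was 6.98 and 6.23 CPM. These levels mark the background of the libraries.

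Among the members found in both genotypes, *Ccn2* had the largest fold rise in the ECs of *Angpt2*-KO mice, followed by *Ccn1*. With cluster 4 included, both changed more in capillary-like than in arterial-like ECs, in a comparison added after the data were seen. At 2000 UMIs per cell the *Ccn2* part of that comparison missed the threshold, and it was not made without cluster 4. *Ankrd1* was found in ECs of the *Angpt2*-KO mice and in no EC of the *Angpt2*-WT mice. *Amotl2* also rose in ECs, while *Yap1* and *Tead1* themselves passed the genotype test in no group of cells. *Ccn2* and *Wwtr1* also rose in pericyte-like cells, but among those without a UMI of *Cldn5* the *Ccn2* levels of the genotypes overlapped. In smooth muscle-like cells the *Ccn2* level was lower in both *Angpt2*-KO mice, a difference that missed the threshold.

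**Figure D1:**
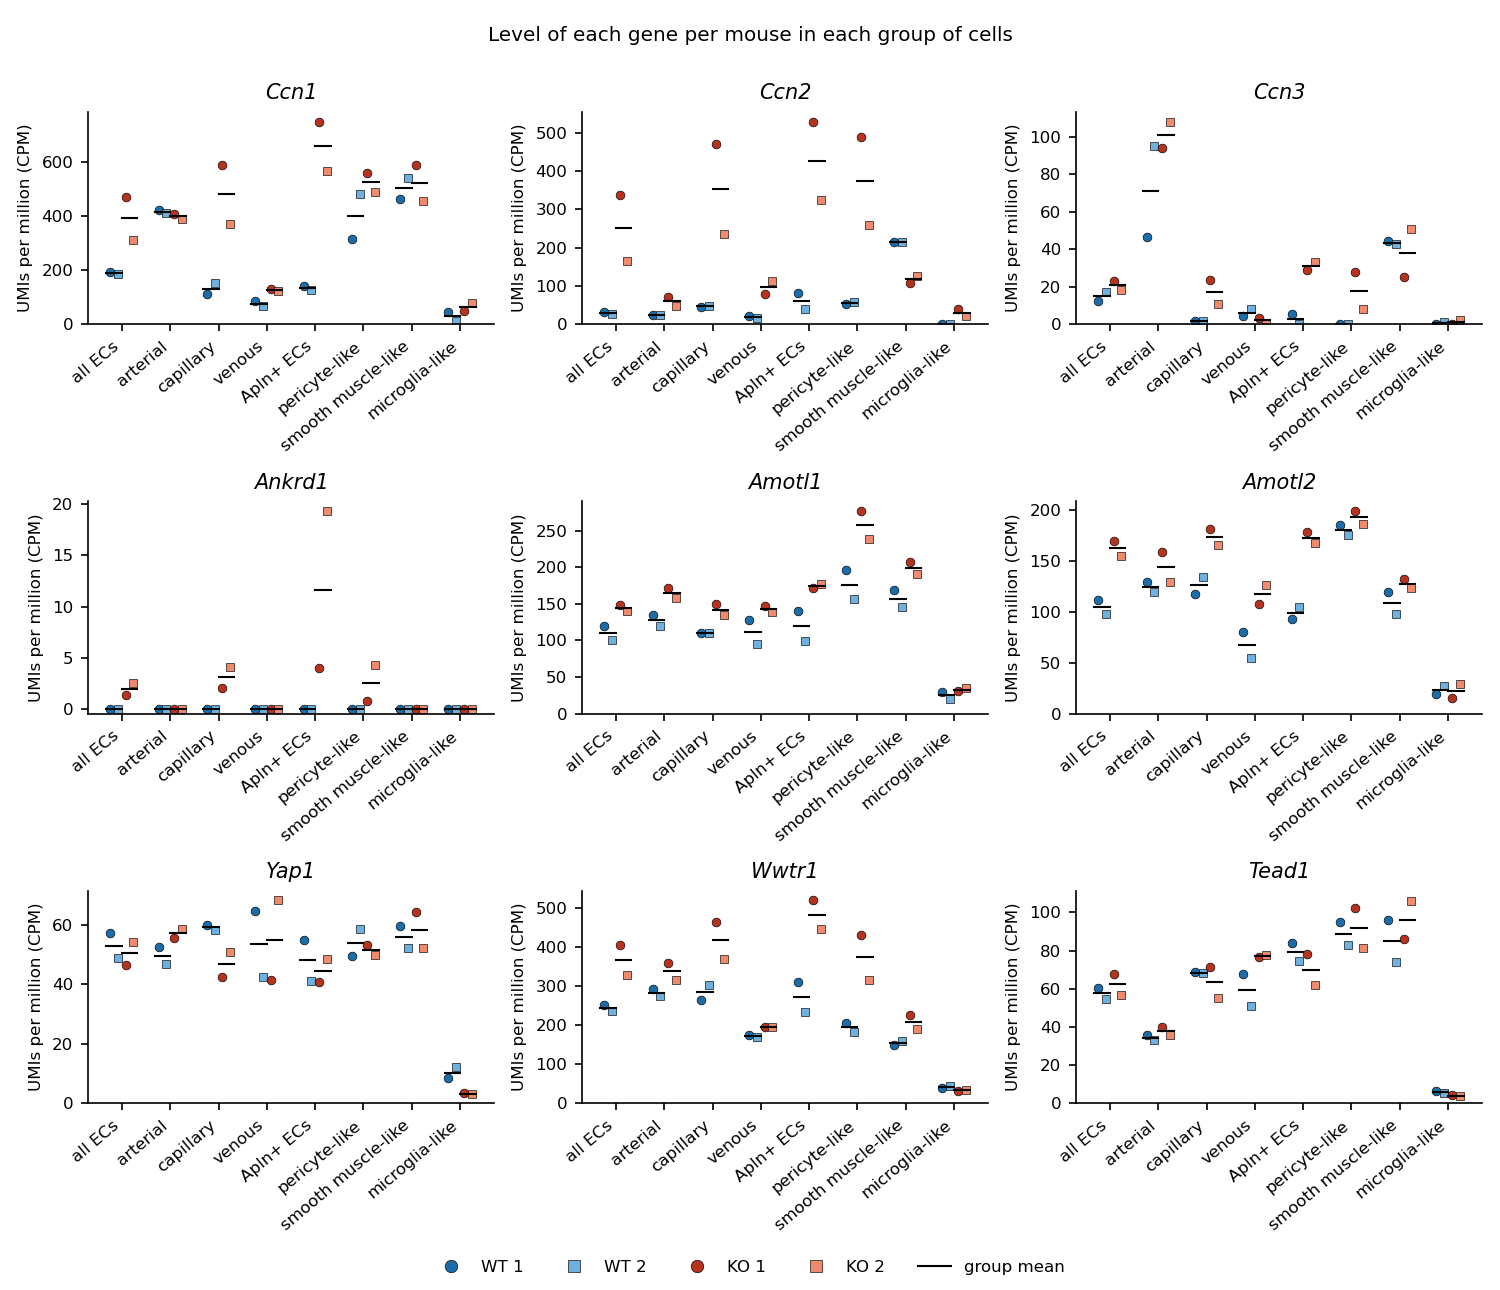
Levels of the 9 genes in CPM in all, arterial-like, capillary-like, venous-like and *Apln*-positive ECs and in pericyte-like, smooth muscle-like and microglia-like cells, with 1 point per mouse and the mean of each genotype as a line. For *Ccn2* both *Angpt2*-KO points lie above both *Angpt2*-WT points in all groups of cells except smooth muscle-like cells, where both lie below, and for *Yap1* the points of the genotypes overlap in all ECs.

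The coactivator and DNA-binding genes come first. Their products are known to switch on targets such as *Ccn1*, *Ccn2*, *Ankrd1* and *Amotl2*, which was not tested here. *Yap1* was measured at 57.2, 48.7, 46.6 and 54.1 CPM in all ECs, so the genotypes overlapped. Its change in ECs was −0.09 log2 (edgeR adjusted p = 0.78). In capillary-like ECs *Yap1* stood at 59.9, 58.3, 42.4 and 50.8 CPM, lower in both *Angpt2*-KO mice, yet this did not pass the test (log2 fold change −0.36, edgeR adjusted p = 0.132). Without KO2, or with the mouse number as a block, the same difference passed, with log2 fold changes of −0.50 (edgeR adjusted p = 0.00989) and −0.36 (edgeR adjusted p = 0.0462). *Tead1* lay at 60.4, 54.6, 67.8 and 56.6 CPM in ECs, where it changed by 0.10 log2 (edgeR adjusted p = 0.748), and in arterial-like ECs at 35.5, 33.1, 40.03 and 35.5 CPM. In pericyte-like cells its levels were 95.1, 82.7, 102 and 81.4 CPM and in smooth muscle-like cells 95.8, 74.0, 86.1 and 106 CPM, with the genotypes overlapping in both.

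*Wwtr1*, the gene of TAZ, passed the test in capillary-like and *Apln*-positive ECs and in pericyte-like cells. In ECs it measured 251, 236, 405 and 328 CPM, so both *Angpt2*-KO mice were above both *Angpt2*-WT mice, with a log2 fold change of 0.57 just outside the threshold (edgeR adjusted p = 0.0571). DESeq2 placed it inside (adjusted p = 0.000943), as did the edgeR fits without KO2 (0.74, edgeR adjusted p = 0.0241), with a block on the mouse number (0.56, edgeR adjusted p = 0.0327) and without the filter on low counts (0.56, edgeR adjusted p = 0.00196). Capillary-like ECs had 264, 303, 464 and 369 CPM, a rise of 0.54 log2 (edgeR adjusted p = 0.0475). Without cluster 4 the difference was 0.16 log2 (edgeR adjusted p = 0.875), and without cells that held *Apln* it was 0.37 log2 (edgeR adjusted p = 0.0641). In venous-like ECs *Wwtr1* was at 175, 168, 194 and 194 CPM and in arterial-like ECs at 292, 274, 359 and 315 CPM, and neither difference passed.

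Of the angiomotin genes only *Amotl2* passed between genotypes. *Amotl2*, a YAP target whose product restrains YAP at junctions, stood at 111, 97.4, 170 and 155 CPM in ECs and rose by 0.62 log2 (SE 0.12, edgeR adjusted p = 0.0176). Its capillary-like levels were 118, 135, 182 and 166 CPM, a rise of 0.45 log2 (edgeR adjusted p = 0.0277). Arterial-like ECs overlapped, with 130, 119, 159 and 129 CPM. *Amotl1* was at 120, 100.2, 148 and 140.0 CPM in ECs and passed in no set of cells (in ECs log2 fold change 0.37, edgeR adjusted p = 0.138). Without the filter on low counts it passed in ECs (edgeR adjusted p = 0.0454), capillary-like (0.0149) and *Apln*-positive ECs (0.0143), and it also passed in capillary-like ECs without KO2 (0.42, edgeR adjusted p = 0.0151) or at cluster resolution 0.6 (0.45, edgeR adjusted p = 0.0396) and in *Apln*-positive ECs without WT1 (0.83, edgeR adjusted p = 0.00275). The call of *Amotl2* in ECs was lost without WT2 (0.51, edgeR adjusted p = 0.0635), without KO1 (0.56, edgeR adjusted p = 0.0599) and without cluster 4 (0.47, edgeR adjusted p = 0.0762). Without cluster 4 its capillary-like call was lost as well (0.30, edgeR adjusted p = 0.385).

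Of the secreted targets, *Ccn2* encodes a matrix protein that binds integrins and growth factors. In all ECs it was found at 30.6, 26.7, 338 and 166 CPM, so that both *Angpt2*-KO mice were far above both *Angpt2*-WT mice. The log2 fold change was 3.11 (SE 0.30, edgeR adjusted p = 0.00172), and without KO1, the mouse with the higher level, it was 2.52. Capillary-like ECs had 45.7, 47.5, 470.3 and 236 CPM, with a rise of 2.90 log2 (SE 0.29, edgeR adjusted p = 0.00305). Venous-like ECs had 21.1, 16.1, 79.7 and 113 CPM and rose by 2.33 log2 (SE 0.23, edgeR adjusted p = 0.000277). Arterial-like ECs had 22.8, 24.9, 70.9 and 48.4 CPM and rose by 1.26 log2 (SE 0.19, edgeR adjusted p = 0.00497). *Ccn2* was thus the only member that passed in each of these zones. The background of *Ccn2* in microglia-like cells also differed, with means of 0.677 CPM (*Angpt2*-WT) and 30.1 CPM (*Angpt2*-KO). Beside it the arterial-like means were 23.8 and 59.7 CPM, and the part of this background in the differences was not tested. KO1 was the higher *Angpt2*-KO mouse in ECs as a whole, in arterial-like and in capillary-like ECs, and KO2 in venous-like ECs. In arterial-like ECs the call was lost without WT1 (1.20, edgeR adjusted p = 0.157) and without WT2 (1.31, edgeR adjusted p = 0.123).

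The rise of *Ccn2* was largest where cluster 4 was included but was found outside it too. Cluster 4 itself had 139, 225, 559 and 381 CPM. Capillary-like ECs outside cluster 4 had 40.9, 41.6, 175 and 109 CPM, a rise of 1.76 log2 (edgeR adjusted p = 0.000658), and all ECs outside it rose by 1.74 log2 (edgeR adjusted p = 0.00107). In the ECs of cluster 2, which held no zone name, *Ccn2* was at 27.7, 20.8, 79.0 and 37.3 CPM. The part of the background seen in microglia-like cells in these levels was not tested. In ECs without a UMI of *Apln* it was at 29.5, 26.3, 245 and 142 CPM, a rise of 2.77 log2 (edgeR adjusted p = 0.00115). In the cells led by the fenestration gene *Plvap*, which were not counted as ECs, it was at 153, 189, 214.5 and 228 CPM, a difference that was not tested.

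*Ccn1*, a CCN gene that regulates angiogenesis, had another pattern over the zones. In *Angpt2*-WT mice it was an arterial-like gene, with 423 and 412 CPM in arterial-like ECs against 110 and 152 CPM in capillary-like and 84.5 and 68.1 CPM in venous-like ECs. In *Angpt2*-KO mice arterial-like ECs stayed at 410 and 391 CPM (log2 fold change −0.11, edgeR adjusted p = 0.886), and capillary-like ECs stood at 591 and 370.4 CPM, a rise of 1.87 log2 (SE 0.22, edgeR adjusted p = 0.00478). Venous-like ECs had 129 and 122 CPM, above both *Angpt2*-WT mice, but did not pass (0.63, edgeR adjusted p = 0.224). Over all ECs *Ccn1* was at 192.5, 187, 470.1 and 313.5 CPM and rose by 1.03 log2 (SE 0.19, edgeR adjusted p = 0.0164). That call was lost without WT1 (1.08, edgeR adjusted p = 0.083), without WT2 (0.98, edgeR adjusted p = 0.0893) and without cluster 4 (0.27, edgeR adjusted p = 0.364). Capillary-like ECs outside cluster 4 kept a rise, from 106 and 136 CPM to 288 and 203 CPM (1.01, edgeR adjusted p = 0.00631).

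*Ccn3*, a CCN gene known from arteries and from Notch signalling, was mainly arterial-like, at 46.6, 95.0, 93.8 and 108 CPM, where the genotypes overlapped. In capillary-like ECs it was at 1.68 and 1.72 CPM (12 and 14 UMIs) in *Angpt2*-WT mice and at 23.8 and 10.8 CPM (357 and 145 UMIs) in *Angpt2*-KO mice, a rise of 3.33 log2 (SE 0.44, edgeR adjusted p = 0.00646). Without KO1 the rise was 2.67 log2, and at 2000 UMIs per cell 2.14 log2 (edgeR adjusted p = 0.0473). Most of this lay in cluster 4, where the *Angpt2*-KO mice had 29.4 and 20.6 CPM. Outside cluster 4 the capillary-like levels were 1.62, 1.78, 4.89 and 2.11 CPM and the difference did not pass (0.88, edgeR adjusted p = 0.70).

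*Ankrd1*, an ankyrin repeat gene of stretched muscle that is a common reporter of YAP activity, was rare. *Angpt2*-WT ECs had 0 UMIs in 3221 cells and 0 UMIs in 4692 cells, which allows a share of up to 0.0931% and 0.0639% of cells with a UMI. *Angpt2*-KO ECs had 31 and 56 UMIs in 10 and 11 cells. Of these 21 cells 20 lay in cluster 4 and 19 also held *Apln*, and 1 cell held 33 of the UMIs. Against 3 counts over both *Angpt2*-WT mice, the level was at least 39.2-fold higher in all ECs and at least 15.6-fold higher in capillary-like ECs (edgeR adjusted p = 0.00448 and 0.0137). With the *Angpt2*-WT mice at 0, these tests could only give a rise. With 1 mouse left out the bound was 22.0 (WT1), 17.2 (WT2), 51.5 (KO1) and 27.5 (KO2) in all ECs and 8.28, 7.29, 21.3 and 10.51 in capillary-like ECs, in the same order. With 32 and 28 *Angpt2*-WT cells in cluster 4, 3 counts there would be 4.89 CPM, and the *Angpt2*-KO level was 4.82 CPM. Within that cluster no difference in *Ankrd1* was shown. *Ankrd1* was not detected in arterial-like, venous-like, smooth muscle-like or microglia-like cells of any mouse.

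Read against the background of each test, 4 of 9 members rose in ECs (*Ccn2*, *Ankrd1*, *Ccn1*, *Amotl2*), where 6.08% of 13524 genes passed in either direction. In capillary-like ECs 6 of 9 rose (these 4 with *Ccn3* and *Wwtr1*) against 8.2% of 12211 genes, in arterial-like ECs 1 of the 8 tested (*Ccn2*) against 0.324% of 10811 genes, and in venous-like ECs 1 of 8 (*Ccn2*) against 0.126% of 10312 genes. No member fell in any of them. The median change of the members was 0.57 log2 in ECs and 0.54 log2 in capillary-like ECs, beside medians of −0.02 and −0.01 over all genes tested. *Ankrd1*, at 0 in the *Angpt2*-WT mice, entered the tests in ECs and capillary-like ECs only through *Angpt2*-KO cells. Its place in both counts could only be a rise. The members were chosen with earlier results of these data known. Shares and medians of the members, here and below, are therefore a description and no test of the set. All 6 capillary-like calls were lost when WT1 or WT2 was left out, with edgeR adjusted p between 0.184 and 0.305 without WT1, and between 0.205 and 0.252 without WT2, although *Ccn1* and *Ccn2* still differed by 1.72 and 2.95 log2 without WT1 and by 2.04 and 2.86 log2 without WT2. The capillary-like calls of *Amotl2* and *Wwtr1* were also lost without KO1 (edgeR adjusted p = 0.056 and 0.166) and at 2000 UMIs per cell (edgeR adjusted p = 0.152 and 0.0676). A list of 12 immediate early and heat shock genes, a sign of stress during dissociation, summed to 8718, 8133, 5469 and 5668 CPM in ECs and to 2621, 2557, 3933 and 3623 CPM in capillary-like ECs, with 10 of its genes below and 10 above in the *Angpt2*-KO mice respectively, and its part in the results was not tested.

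**Figure D2:**
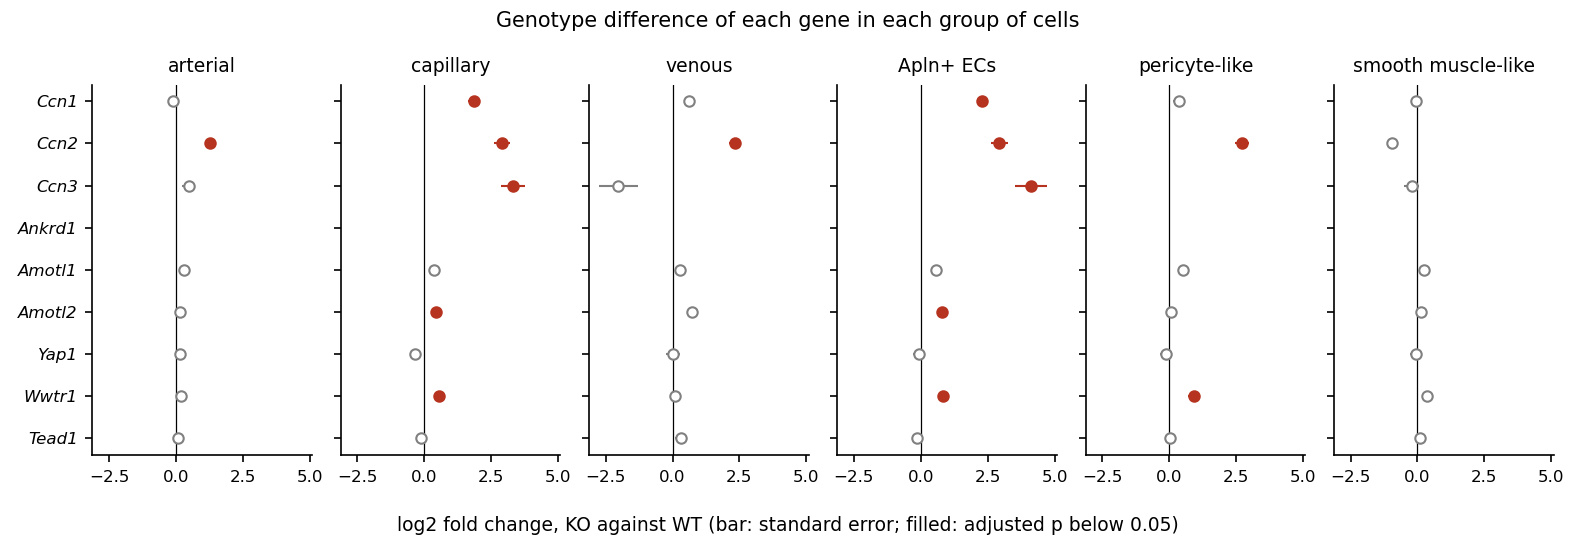
Log2 fold change of *Angpt2*-KO against *Angpt2*-WT with its standard error for each member in each group of cells, with filled points where the edgeR adjusted p was under 0.05. *Ccn2* is filled in all 4 EC panels and in pericyte-like cells, and its smooth muscle-like point is the one *Ccn2* value below 0. *Ankrd1* and the pericyte-like *Ccn3* value are left out because the *Angpt2*-WT mice were at 0.

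Whether capillary-like and arterial-like ECs differed in their genotype change was tested in a comparison added after the data were seen, with the mouse as a term. *Ccn1* changed more in capillary-like ECs by 1.93 log2 (SE 0.16, edgeR adjusted p = 1.184e-06), *Ccn2* by 1.57 log2 (SE 0.17, edgeR adjusted p = 1.224e-05) and *Ccn3* by 2.81 log2 (SE 0.42, edgeR adjusted p = 0.000387). *Yap1* changed the other way, by −0.53 log2 (SE 0.15, edgeR adjusted p = 0.0357), since it was 50.8 CPM or less in capillary-like ECs of *Angpt2*-KO mice and, in arterial-like ECs, above the *Angpt2*-WT mice. So 4 of 9 members passed where 6.78% of 12028 genes did. The *Yap1* call was lost without WT1, WT2 or KO1 (−0.52, −0.52 and −0.44 log2, edgeR adjusted p = 0.232, 0.244 and 0.15). With every cell thinned to 2000 UMIs, *Ccn1* alone remained past the threshold (1.81 log2), while *Ccn2* and *Ccn3* had 0.81 and 1.66 log2 (edgeR adjusted p = 0.304 and 0.0807). The *Ccn3* difference was 2.13 log2 without WT2, 2.11 log2 without KO1 and 3.45 log2 without KO2. The capillary-like sums of this comparison held cluster 4, and no fit without that cluster was made. Outside cluster 4 the capillary-like genotype changes were 1.015 (*Ccn1*), 1.76 (*Ccn2*) and 0.88 log2 (*Ccn3*). In arterial-like ECs they were −0.11, 1.26 and 0.48 log2, in the same order.

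*Apln*-positive ECs were 1.18% and 1.36% of *Angpt2*-WT ECs (38 and 64 cells) and 18.8% and 7.46% of *Angpt2*-KO ECs (392 and 306 cells). Within them *Ccn1* was at 142, 128, 750.3 and 569 CPM, a rise of 2.29 log2 (SE 0.20, edgeR adjusted p = 2.156e-05). *Ccn2* was at 80.6, 38.6, 528 and 324 CPM, a rise of 2.94 log2 (SE 0.32, edgeR adjusted p = 8.355e-05). The class was not made up alike in both genotypes. Within it the 6 venous markers summed to 2200, 2970, 813 and 1076 CPM, with all 6 lower in both *Angpt2*-KO mice, and the 12 stress genes to 8418, 9106, 5565 and 5714 CPM, with 9 lower, and their part in the differences was not tested. The few *Angpt2*-WT cells were also deep, with medians of 11303 and 13092 UMIs beside 5405 and 4478 in the other *Angpt2*-WT ECs, and a UMI of *Apln* was found in 0.481%, 0.621%, 4.15% and 1.85% of microglia-like cells, which marks the background of a single UMI. *Ccn3* was at 5.14, 0, 28.7 and 33.3 CPM (4.11 log2, edgeR adjusted p = 0.000733), a call that DESeq2 did not make (adjusted p = 0.261). Without WT2, the mouse at 0, the *Ccn3* rise was 2.54 log2 (edgeR adjusted p = 0.00215), and without WT1 no size can be given. *Amotl2* rose from 92.6 and 105 CPM to 178 and 167 CPM (0.79 log2, edgeR adjusted p = 0.00531) and *Wwtr1* from 310.3 and 233 CPM to 519 and 445 CPM (0.83 log2, edgeR adjusted p = 0.0144). *Ankrd1* had 30 and 55 UMIs in the *Angpt2*-KO mice and 0 in the *Angpt2*-WT mice, a level at least 4.83-fold higher against 3 counts over both. With 1 mouse left out this bound was 3.22 (WT1), 1.61 (WT2), 11.2 (KO1) and 2.36 (KO2). In all, 5 of the 8 members tested rose, where 9.96% of 10096 genes passed. The *Wwtr1* call was lost without WT2 (0.61, edgeR adjusted p = 0.0758) and without KO1 (0.71, edgeR adjusted p = 0.11), and at 2000 UMIs per cell the calls of *Ccn1* and *Ccn2* were the 2 left.

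Within the *Angpt2*-KO mice, *Apln*-positive ECs could be set against the other ECs of the same mouse. With only 2 mice, 2 sums each, the p-values of this comparison say little about the spread between mice. *Ccn1* was at 750.3 and 569 CPM in *Apln*-positive and at 334 and 275 CPM in the other ECs, higher in the former in both mice (1.12 log2, SE 0.08, edgeR adjusted p = 9.564e-40). *Ccn2* was at 528 and 324 CPM against 245 and 142 CPM (1.16 log2, SE 0.08, edgeR adjusted p = 1.004e-43). *Ankrd1* had 85 UMIs in the *Apln*-positive and 2 in the other cells, a ratio of levels of 142 with an exact 95% counting interval of 38.1 to 1190 (edgeR adjusted p = 2.946e-28). That interval takes each UMI as an independent draw, although 1 cell of KO2 held 33 of them, and covers no spread of cells or mice. The fitted differences of *Ankrd1*, *Ccn1* and *Ccn3* each moved by more than their SE when either mouse was left out. *Wwtr1* was higher by 0.55 log2 (edgeR adjusted p = 3.037e-11), *Ccn3* by 0.73 log2 (edgeR adjusted p = 9.465e-08), *Amotl1* by 0.37 log2 (edgeR adjusted p = 2.11e-05) and *Tead1* by 0.26 log2 (edgeR adjusted p = 0.0155). *Amotl2* and *Yap1* did not pass (0.12 and −0.23 log2, edgeR adjusted p = 0.255 and 0.0578). The *Ccn3* difference was 1.05 log2 without KO1, 0.51 log2 without KO2 and 1.92 log2 within capillary-like ECs. These 7 of 9 members stand beside a high background, since 26.1% of 12314 genes passed, and the *Apln*-positive cells were also deeper, with medians of 12685 and 5884 UMIs against 6950 and 3813.5. Without the mouse as a term *Ccn2* missed the threshold (1.16 log2, edgeR adjusted p = 0.0567), and so did *Tead1* (0.27 log2, edgeR adjusted p = 0.26), which DESeq2 did not pass either (adjusted p = 0.673).

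Pericyte-like cells, the mural cells of capillaries, numbered 73, 147, 169 and 206. *Ccn2* was at 52.8, 58.5, 488 and 260 CPM, above both *Angpt2*-WT mice in both *Angpt2*-KO mice, with a log2 fold change of 2.71 (SE 0.27, edgeR adjusted p = 4.625e-06), or 1.93 at 2000 UMIs per cell (edgeR adjusted p = 0.000218). *Wwtr1* was at 206, 183, 430.2 and 316 CPM and rose by 0.92 log2 (SE 0.20, edgeR adjusted p = 0.00731). *Ccn3* had 0 UMIs in both *Angpt2*-WT mice and 102 and 13 UMIs in the *Angpt2*-KO mice, at least 11.2-fold higher against 3 counts over both *Angpt2*-WT mice (edgeR adjusted p = 0.00362). This bound was 4.17 without KO1, 14.3 without KO2, 7.14 without WT1 and 4.09 without WT2. *Ccn1* did not pass, at 317, 483, 562 and 489.5 CPM (edgeR adjusted p = 0.373). So 3 of the 8 members tested rose where 5.77% of 9769 genes passed. One of them, *Ccn3*, entered this test only through *Angpt2*-KO cells and could only rise. *Ccn3* and *Wwtr1* lost the call without WT2 (edgeR adjusted p = 0.11 and 0.0872), and *Wwtr1* also without KO1 (0.68, edgeR adjusted p = 0.374) and at 2000 UMIs per cell (0.52, edgeR adjusted p = 0.33).

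These cells also carried endothelial transcripts. The 7 EC markers summed to 6795, 7559, 7550 and 7640 CPM in them, beside 11600 to 12670 CPM in ECs, and *Apln* stood at 1.76, 1.01, 506 and 291 CPM. Cells with a UMI of *Cldn5* (29, 65, 108 and 128 cells) had *Ccn2* at 51.1, 39.3, 538 and 284 CPM, whereas cells without one (44, 82, 61 and 78 cells) had 57.4, 115, 57.3 and 125 CPM, on 9, 29, 22 and 31 UMIs. Among the cells without *Cldn5* the genotypes overlapped and the *Ccn2* difference was −0.11 log2 (edgeR adjusted p = 0.973), that of *Wwtr1* was 0.57 log2 (edgeR adjusted p = 0.675), and 0 members passed. Cells without *Cldn5* were shallow, with medians of 2001 to 4805 UMIs against 8277 to 22011 in those with it. Without the cells that held *Apln*, *Ccn2* was at 27.8, 60.7, 195 and 184 CPM and still rose (1.96 log2, edgeR adjusted p = 6.488e-07), while *Wwtr1* did not pass (0.62, edgeR adjusted p = 0.0666). All 30 *Angpt2*-KO cells with *Ccn3* and all 6 with *Ankrd1* also held *Cldn5*. KO1 pericyte-like cells also had 9455 CPM of 5 erythrocyte genes beside 77.5 to 910 CPM in the other mice, and its part in the results was not tested.

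**Figure D3:**
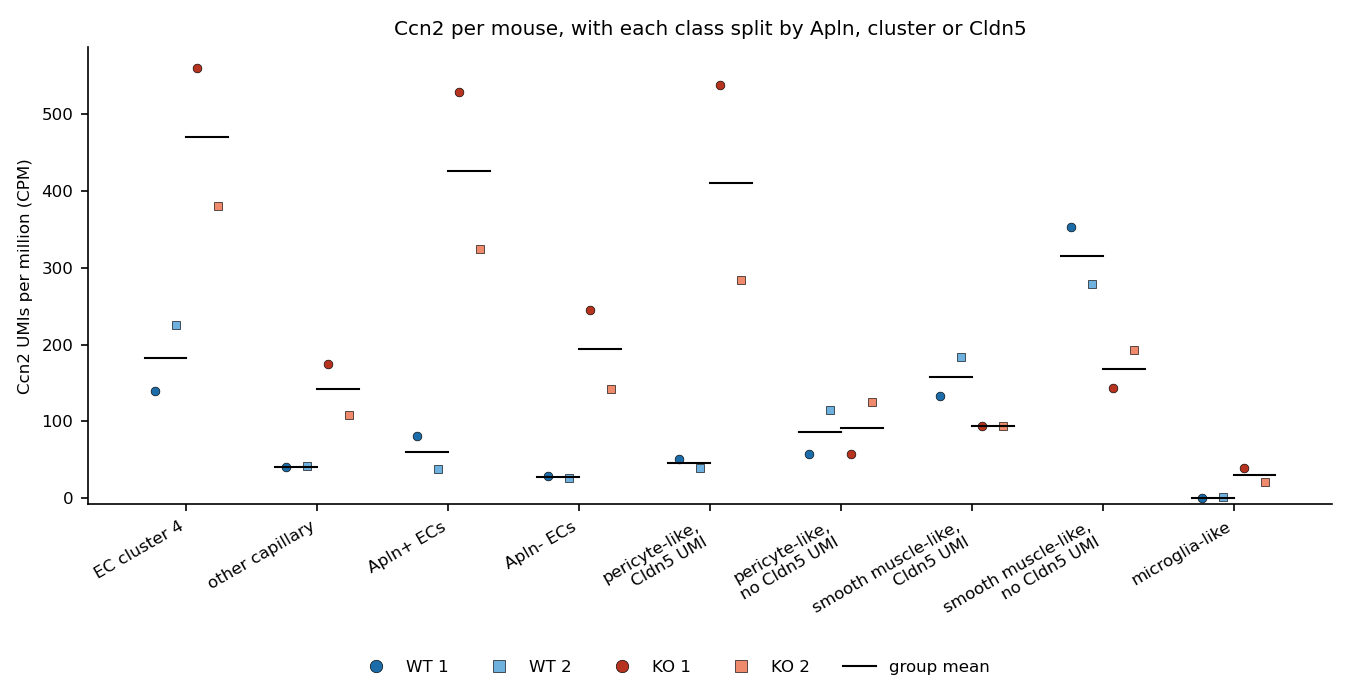
*Ccn2* level in CPM, with 1 point per mouse and the mean of each genotype as a line, in cluster 4 and other capillary-like ECs, in ECs with and without *Apln*, in pericyte-like and smooth muscle-like cells split by whether a cell held a UMI of *Cldn5*, and in microglia-like cells. In pericyte-like cells the genotypes separate with *Cldn5* (39.3 to 51.1 against 284 to 538 CPM) and overlap without it, and in smooth muscle-like cells both *Angpt2*-KO points lie below the *Angpt2*-WT points in either set.

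Smooth muscle-like cells, which wrap arterioles and arteries, were the one group in which *Ccn2* was lower in *Angpt2*-KO mice. The 4 levels were 215, 214, 108 and 127 CPM, on 504, 410, 104 and 204 UMIs in 269, 194, 53 and 236 cells. The *Angpt2*-WT mean was 214 ± 0.77 CPM and the *Angpt2*-KO mean 117 ± 13.3 CPM (SD, n = 2 each), and the log2 fold change was −0.95 (SE 0.19). This did not pass over all genes (edgeR adjusted p = 0.131, unadjusted p = 5.802e-05). No gene did in this comparison (0% of 10301 by edgeR, with 616 at an unadjusted p under 0.05, and 1 gene by DESeq2), so 0 of the 8 members tested were called. Without the filter on low counts the change was −0.96 log2 (edgeR adjusted p = 0.00189). With a block on the mouse number it was −0.96 log2 (edgeR adjusted p = 0.00868), and without WT2 −0.96 log2. The direction of *Ccn2* in these cells was known from an earlier look at these data. Its p-values here are therefore a description and no test.

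In smooth muscle-like cells without *Cldn5* (119, 99, 29 and 98 cells) *Ccn2* was at 353, 279, 144 and 193 CPM (−0.97 log2, edgeR adjusted p = 0.277), and in those with *Cldn5* at 133, 183, 94.4 and 94.3 CPM. The EC markers summed to 4376, 4856, 6582 and 5104 CPM in the whole group, with 4 of the 7 above both *Angpt2*-WT mice in both *Angpt2*-KO mice. In the same way 6 microglia markers summed to 39.2, 44.8, 194 and 95.1 CPM (5 of 6 above) and 5 erythrocyte genes to 2289, 1770, 3552 and 4635 CPM (3 of 5 above), and the part of these cells in the difference was not tested. *Ccn1* was at 465, 541, 588 and 457 CPM, *Ccn3* at 44.3, 42.7, 24.9 and 51.0 CPM, and for both the genotypes overlapped.

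The genotype changes of mural cells and ECs were compared directly, with the mouse as a term. The opposite direction of *Ccn2* in smooth muscle-like cells was known from an earlier look at these data and prompted that comparison, so its difference from ECs of −3.94 log2 (SE 0.26) is a description with no test. *Ccn1* changed by 1.04 log2 less in smooth muscle-like cells than in ECs (difference −1.04, SE 0.15, edgeR adjusted p = 0.000641). By the fit 2 of 9 members lay past the threshold, *Ccn1* and *Ccn2*, where 1.31% of 13789 genes did. Since *Ccn2* prompted the comparison, its place in this count is no test result. Without KO1 the *Ccn2* difference was −3.32 log2 and without KO2 −4.71 log2, and *Ccn1* lost the call when the mouse was not a term (−1.07, edgeR adjusted p = 0.259). The change of *Ccn2* in pericyte-like cells was not shown to differ from that in ECs (difference −0.40, SE 0.18, edgeR adjusted p = 0.411). *Ccn1* changed less in pericyte-like cells than in ECs (difference −0.63, edgeR adjusted p = 0.00705) and so did *Amotl2* (difference −0.54, edgeR adjusted p = 0.0258), while *Ccn3* changed more (edgeR adjusted p = 0.000281, with *Angpt2*-WT pericyte-like cells at 0), so that 3 of 9 passed where 1.69% of 13708 genes did. All 30 *Angpt2*-KO pericyte-like cells with *Ccn3* held *Cldn5* and 25 held *Apln*. The part of endothelial transcripts in the *Ccn3* difference was not tested. The pericyte differences of *Ccn1* and *Amotl2* were lost without WT2 (−0.26 and −0.48, edgeR adjusted p = 0.688 and 0.315) and without KO1 (−0.47 and −0.56, edgeR adjusted p = 0.16 and 0.125), and DESeq2 passed none of the 3 (adjusted p = 0.0507 to 0.303).

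The share of cells with a UMI moved with the level and with depth. *Ccn2* was found in 13.9%, 11.1%, 49.5% and 27.0% of ECs, with exact 95% binomial intervals of 12.8 to 15.2%, 10.2 to 11.99%, 47.3 to 51.7% and 25.6 to 28.3%, which cover counting error only. After thinning to 2000 UMIs the shares were 5.03%, 4.86%, 26.6% and 17.3%, so both *Angpt2*-KO mice stayed above. In capillary-like ECs they were 12.2%, 9.58%, 54.6% and 29.4%, thinned 6.72%, 6.97%, 33.2% and 21.0%. In pericyte-like cells the *Ccn2* shares were 12.3%, 18.4%, 52.1% and 36.9% (thinned 3.03%, 10.7%, 26.2% and 25%), and in smooth muscle-like cells 41.3%, 43.8%, 37.7% and 35.2% (thinned 22.9%, 22.8%, 11.5% and 20.1%). In microglia-like cells, with medians of 3497 to 6265 UMIs, they were 0%, 0.62%, 6.79% and 4.80%, in each mouse below the share in ECs.

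*Ccn1* was found in 36.2%, 29.3%, 47.7% and 33.1% of ECs. Here KO2, the shallower library, lay within the *Angpt2*-WT range before thinning and above it afterwards (18.5%, 17.3%, 27.8% and 22.8%). In arterial-like ECs the thinned *Ccn1* shares were 37.4%, 35.3%, 34.0% and 31.1%, and in capillary-like ECs 11.6%, 11.9%, 29.4% and 22.8%. With 2 mice against 2 the smallest two-sided p of an exact permutation test is 0.3333, so these shares cannot pass 0.05 and are given as values.

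**Figure D4:**
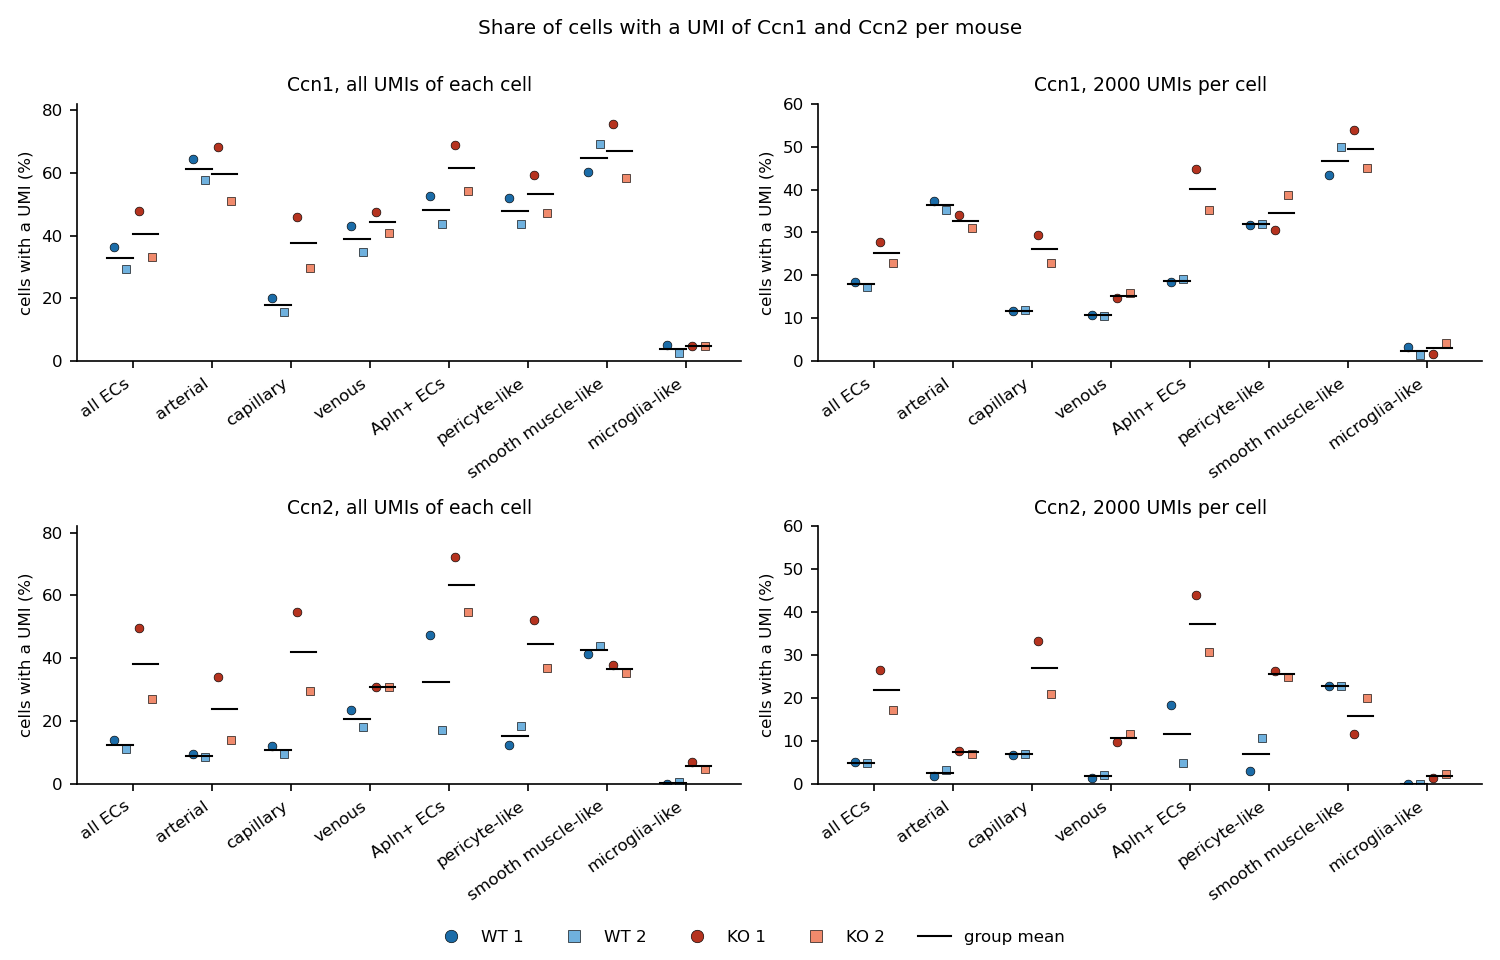
Share of cells with a UMI of *Ccn1* and *Ccn2* per mouse in percent in each group of cells, with all UMIs of each cell (left) and after thinning to 2000 UMIs (right), and with the mean of each genotype as a line. Thinning lowers every share above 0, and the *Angpt2*-KO points of *Ccn2* stay above the *Angpt2*-WT points in ECs and in capillary-like ECs.

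The other genes of the pathway were taken from fixed lists of 43 genes, of which 31 to 38 could be tested per genotype comparison. Among the 14 genes of the Hippo kinase cascade, such as *Lats1*, *Stk3* and *Nf2*, none passed between genotypes in any group of cells. In ECs 5 of the 38 tested rose and 1 fell, beside 6.08% of all genes in either direction. *Nuak2*, a kinase gene and YAP target, rose by 1.98 log2 (edgeR adjusted p = 0.00508), and *Ajuba*, whose product binds LATS kinases, by 1.15 log2 (edgeR adjusted p = 0.00817). *Crim1* rose by 0.94, *Dock5* by 0.95 and *Igfbp3*, the gene of an IGF-binding protein, by 0.89 log2, while *Rbms3* changed by −1.08 log2. In capillary-like ECs 5 of 34 rose (*Crim1*, *Ajuba*, *Nuak2*, *Asap1* and *Dock5*) and 0 fell, beside 8.2% of all genes. *Igfbp3* was the one listed gene to pass in arterial-like ECs, at 1.71 log2, and in venous-like ECs, at 2.29 log2, of 32 tested in each. The median change of the tested list was 0.15 log2 in ECs and 0.19 log2 in capillary-like ECs, below that of the members.

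In *Apln*-positive ECs *Dock5* (2.05 log2), *Ajuba* (1.80 log2), *Tgfb2*, the gene of a TGF-β ligand (1.04 log2), and *Crim1* (0.92 log2) rose and *Myof* changed by −1.14 log2, which made 5 of 31 beside 9.96% of all genes. In pericyte-like cells *Tgfb2* (0.92 log2) and *Fjx1* (1.19 log2) rose, 2 of 36 beside 5.77% of all genes, a share close to the background, and in smooth muscle-like cells 0 of 37 passed. Within the *Angpt2*-KO mice 12 of 36 were higher and 3 lower in *Apln*-positive than in other ECs, beside 26.1% of all genes, led by *Igfbp3* (−1.59 log2) and *Fjx1* (5.25 log2). *Igfbp3* rose with the genotype in arterial-like and venous-like ECs and was lower in the *Apln*-positive cells, unlike *Ccn1* and *Ccn2*.

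The genes whose levels followed the 2 main members most closely were sought among 8875 genes over 20 sums (arterial-like, capillary-like and venous-like ECs, pericyte-like and smooth muscle-like cells of the 4 mice), by Pearson correlation of log2(CPM + 1). For *Ccn1* they were *Igfbp7* (r = 0.941), *Ywhaq* (0.927), *Mafk* (0.918), *Syn3* (0.914) and *4930523C07Rik* (0.908). For *Ccn2* they were *Galnt1* (0.885), *Cdc42ep3* (0.882), *Rcan3* (0.875) and *Schip1* (0.859). The 2 lists share no gene. The sums share libraries, so these values are a description without a test.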

How the data were processed

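The authors deposited raw UMI counts for each gene and barcode, made from 10x Genomics 3′ libraries with Cell Ranger on GRCm38 (version 6.1.2 per the labels, 6.1.1 per the file headers), without normalization. As in the study, a cell was kept if it had over 500 genes and if mitochondrial UMIs made up under 10% of its total. The members and gene lists were chosen with earlier results of these data known. In R 4.3.3, Seurat 5.3.0 clustered the cells on 2000 variable genes (members and listed pathway genes left out) and 50 components, with a resolution of 0.2 for the whole set and of 0.4 within ECs. A cluster was named by the marker list with the highest mean score where at least 3 markers were each found in 25% of its cells. The study's own cell names were not used here, so numbers of cells may differ from it. Doublets were not removed. For each mouse, the UMIs of a group of cells were added up, and these sums were tested with edgeR 4.0.16 (quasi-likelihood, TMM, filter on low counts, Benjamini-Hochberg adjustment over all genes tested, threshold 0.05). This procedure was tried on simulated sums of ECs with the same spread for every gene. The other groups of cells and the differences between groups were not simulated. DESeq2 1.42.0 and the other settings in the closing section were alternatives. Mice are the replicates, 2 per genotype. Named genes were the members in every comparison and up to 8 listed pathway genes past the threshold per comparison, in order of adjusted p, and the genes most like *Ccn1* and *Ccn2* by correlation, where a result is not reported here. For thinned values every cell was drawn down to 2000 UMIs and shallower cells were left out. The comparison of capillary-like with arterial-like ECs and the fits without *Apln* cells were added after the data were seen. Counting intervals and the floor of 3 counts cover counting error only.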

Additional observations from a re-analysis of the deposited data

Results flagged for a closer look

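Genotype changes that differed between 2 groups of cells of the same mice, by edgeR's test of the difference itself, were picked out. Between smooth muscle-like cells and ECs these were *Ccn1* (−1.04 log2) and *Ccn2* (−3.94 log2, a description with no test, since its direction was known when it was chosen). Between pericyte-like cells and ECs they were *Ccn1* (−0.63 log2), *Amotl2* (−0.54 log2) and *Ccn3* (10.6 log2, a fitted value against *Angpt2*-WT cells at 0 and no measure of size). Between capillary-like and arterial-like ECs they were *Ccn1* (1.93 log2), *Ccn2* (1.57 log2), *Ccn3* (2.81 log2) and *Yap1* (−0.53 log2). No group had the 4 samples that a test for a single outlying mouse needs.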

How the results depend on the processing

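Numbers of genes past the threshold moved with the settings more than the direction of the members. DESeq2 gave 1055 genes for *Apln*-positive against *Apln*-negative ECs (3217 by edgeR), 563 in *Apln*-positive ECs (1006), 257 in pericyte-like cells (564), 74 in venous-like ECs (13, with 0 members, since it gave no adjusted p for *Ccn2*), 1 in smooth muscle-like cells (0), 84 for smooth muscle-like cells against ECs (181) and 76 for pericyte-like cells against ECs (232, members 0). Without the filter on low counts there were 1772 genes and 7 members in ECs, 173 genes in arterial-like, 2168 in capillary-like and 153 genes with 2 members in venous-like ECs, 38 genes with 1 member in smooth muscle-like cells and 360 for smooth muscle-like cells against ECs. Thinning to 2000 UMIs gave 1054 for *Apln*-positive against *Apln*-negative ECs, 191 genes with 2 members in *Apln*-positive, 543 with 3 in capillary-like and 6 with 2 in venous-like ECs, 146 with 1 in pericyte-like cells, 1 gene in smooth muscle-like cells, 43 genes for smooth muscle-like cells against ECs, 80 with 1 member for pericyte-like cells against ECs and 163 with 1 for capillary-like against arterial-like ECs. It also turned the sign of 4 differences in shares (*Angpt2*-KO minus *Angpt2*-WT), to −4.73 points for *Amotl2* and −2.03 for *Yap1* in pericyte-like cells, 5.12 for *Wwtr1* in *Apln*-positive and 0.0469 for *Yap1* in venous-like ECs. At resolution 0.6 arterial-like ECs had 117 and venous-like ECs 37 genes (2 members). Without cluster 4, ECs had 200 genes (1 member) and capillary-like ECs 112 (2 members). Without cells with *Cldn5*, pericyte-like cells had 25 genes and 0 members, *Ccn2* turned to −0.11 log2, and smooth muscle-like cells had 4 genes. Without cells with *Apln*, pericyte-like cells had 173 genes and 1 member. Without the mouse as a term, 1198 genes passed for *Apln*-positive against *Apln*-negative ECs.

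Same-numbered mice share a number and their sex. The study speaks of 2 experiments without saying which mice belonged to each. Their deviations from the group means in ECs correlated by Pearson 0.105 and Spearman −0.128 over 13524 genes, so the numbers were not taken as pairs. With the replicate block 125 genes passed in arterial-like, 1919 in capillary-like and 72 in venous-like ECs and 26 with 1 member, *Ccn2*, in smooth muscle-like cells. Without the mouse as a block, 16 genes and 1 member passed for smooth muscle-like cells against ECs and 0 genes and 0 members for pericyte-like cells against ECs.

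Leaving out 1 mouse gave 272 to 1444 genes (2 to 6 members) in ECs, 4 to 124 (0 to 1) in arterial-like, 0 to 2510 (0 to 8) in capillary-like, 50 to 816 (1 to 3) in venous-like and 605 to 1423 in *Apln*-positive ECs, 101 to 527 (1 to 3) in pericyte-like and 8 to 14 (0 to 1) in smooth muscle-like cells, 141 to 590 (2 to 4) for smooth muscle-like cells against ECs, 116 to 319 (1 to 3) for pericyte-like cells against ECs, and 206 to 1370 for capillary-like against arterial-like ECs. The genotype left with 1 mouse was then assumed to vary like the other. The cause of these shifts was not tested. Depth limits *Ankrd1* and *Ccn3*, at under 3 counts in some sums.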
